A study of Harpegnathos saltator with 27 samples.

Results

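The odorant receptor genes HsOr44 to HsOr101 of the ant Harpegnathos saltator were followed through pupal development of the antenna in orco mutants and in WT. They were chosen by gene number: every gene from HsOr44 up to HsOr101 was taken with any suffix to the number, and HsOr60 and HsOr61 were left out. HsOr61 is one of the genes that the study names as still well expressed in antennae of adult orco mutants. No count or median over the chosen genes includes it. This gave 59 genes of the 14407 in the count table, which holds 377 Or genes including the co-receptor gene HsOrco and so 317 other Or genes. In the annotation used by the study these 59 genes lie on 4 scaffolds. They were described as 4 blocks in scaffold order: HsOr44 to HsOr59 (16 genes), HsOr62 to HsOr77.2 (17 genes), HsOr78 to HsOr86 (9 genes) and HsOr87 to HsOr101 (17 genes).

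Insect odorant receptors are membrane proteins in the dendrites of olfactory receptor neurons (ORNs). A tuning receptor, which binds the odorant, assembles with the shared co-receptor Orco into a ligand-gated cation channel, and Orco is also needed to bring tuning receptors to the dendrite. An ORN usually expresses a single tuning receptor gene, so that the transcript of such a gene in whole antennae reports on a small set of neurons. In ants the family is greatly enlarged, and its genes sit in tandem arrays in which neighbors arose by duplication. All 59 genes are tuning receptors, and no ligand was taken for any of them here.

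Antennae of orco mutant pupae were compared with antennae of WT pupae at 4 stages, D10, D15, D20 and D25, named by the age in days after puparium formation (APF). The orco mutants come from a line made with CRISPR/Cas9, whose germline lesion is carried by all tissues. Neither the labels nor the methods for these libraries give the zygosity of the mutant pupae. There were 3 mutant libraries at each stage (12 in all), against 3 WT libraries at D10 and 4 WT libraries at each later stage (15 in all), which made 27 bulk RNA-seq libraries. The labels do not say which libraries came from separate animals or pools, so p-values measure the spread between these libraries, which may in part be technical. In whole antennae, fewer cells of a type and less RNA per cell cannot be told apart.

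The libraries held 3454610 to 52275933 reads counted on genes (median 22719131), and the 59 receptor genes together took 486 to 6324 of them (median 2144), or 0.00193% to 0.0287%. The lowest depths were those of replicates 3 and 2 of mutant D10 (replicate 2 with 5205684 counts). Both were sequenced in a batch that held 1 other library, mutant D15 replicate 1 (6717868 counts), and no WT library. All 3 mutant D25 libraries shared a batch with 1 of the 4 WT D25 libraries. Reads that mapped to several places were 0.900% to 3.24% and were not counted, which could lower the values of near-identical copies such as HsOr77.1 and HsOr77.2. The counting ignored strand, so antisense or overlapping transcripts cannot be told apart from a receptor's own. HsOrco is the mutated gene, but a small lesion leaves a transcript that is still counted, so its level is no check of genotype. HsOrco averaged 7706 ± 4573 normalized counts in mutants and 3465 ± 849 in WT at D10 (SD, n = 3 and 3), and 19209 ± 5441 and 8689 ± 3749 at D15 (n = 3 and 4). Neither difference passed (log2 fold change 1.12 and 1.10, edgeR adjusted p = 0.766 and 0.467). At D20 it averaged 1022 ± 401 in mutants and 2593 ± 658 in WT (SD, n = 3 and 4; log2 fold change −1.38, SE 0.47, edgeR adjusted p = 0.110). In WT it fell between D15 and D20 (log2 fold change −1.77, SE 0.43, edgeR adjusted p = 0.00796). At D25 it averaged 355 ± 114 in mutants and 3776 ± 1852 in WT (log2 fold change −3.42, SE 0.51, edgeR adjusted p = 0.000121).

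Values below are normalized counts (counts divided by the library's DESeq2 size factor) unless stated otherwise. Gene lengths were not used, so the counts of 2 receptors do not compare their transcript levels. Of the 59 genes, 58 reached an average of 10 reads over the libraries and entered the edgeR quasi-likelihood test. A gene was said to rise or fall where its p, adjusted over all 11086 genes tested by the Benjamini-Hochberg method, was at or below 0.05. HsOr64, with 0 to 24 counts in a library, was not tested.

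The 4 blocks had different time courses in WT. To set genes of different level on 1 scale, each gene was divided by its highest group mean and the scaled values were averaged over a block in each library. In HsOr44 to HsOr59 the WT mean was 0.760 ± 0.262, 0.472 ± 0.197, 0.429 ± 0.0942 and 0.507 ± 0.0366 at D10, D15, D20 and D25 (SD over libraries, n = 3, 4, 4 and 4). In HsOr62 to HsOr77.2 the WT means in the same order were 0.0604 ± 0.0198, 0.767 ± 0.260, 0.646 ± 0.197 and 0.716 ± 0.200. In HsOr87 to HsOr101 they were 0.0253 ± 0.0116, 0.652 ± 0.172, 0.724 ± 0.213 and 0.936 ± 0.268. In HsOr78 to HsOr86 they were 0.541 ± 0.103, 0.773 ± 0.642, 0.629 ± 0.167 and 0.758 ± 0.112. The D15 mean of that block rested on WT D15 replicate 3 (1.64) and was 0.485 without it. The first block thus had its highest WT mean at D10, while the second and the last were near 0 at that stage and high from D15 onward.

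**Figure D1:**
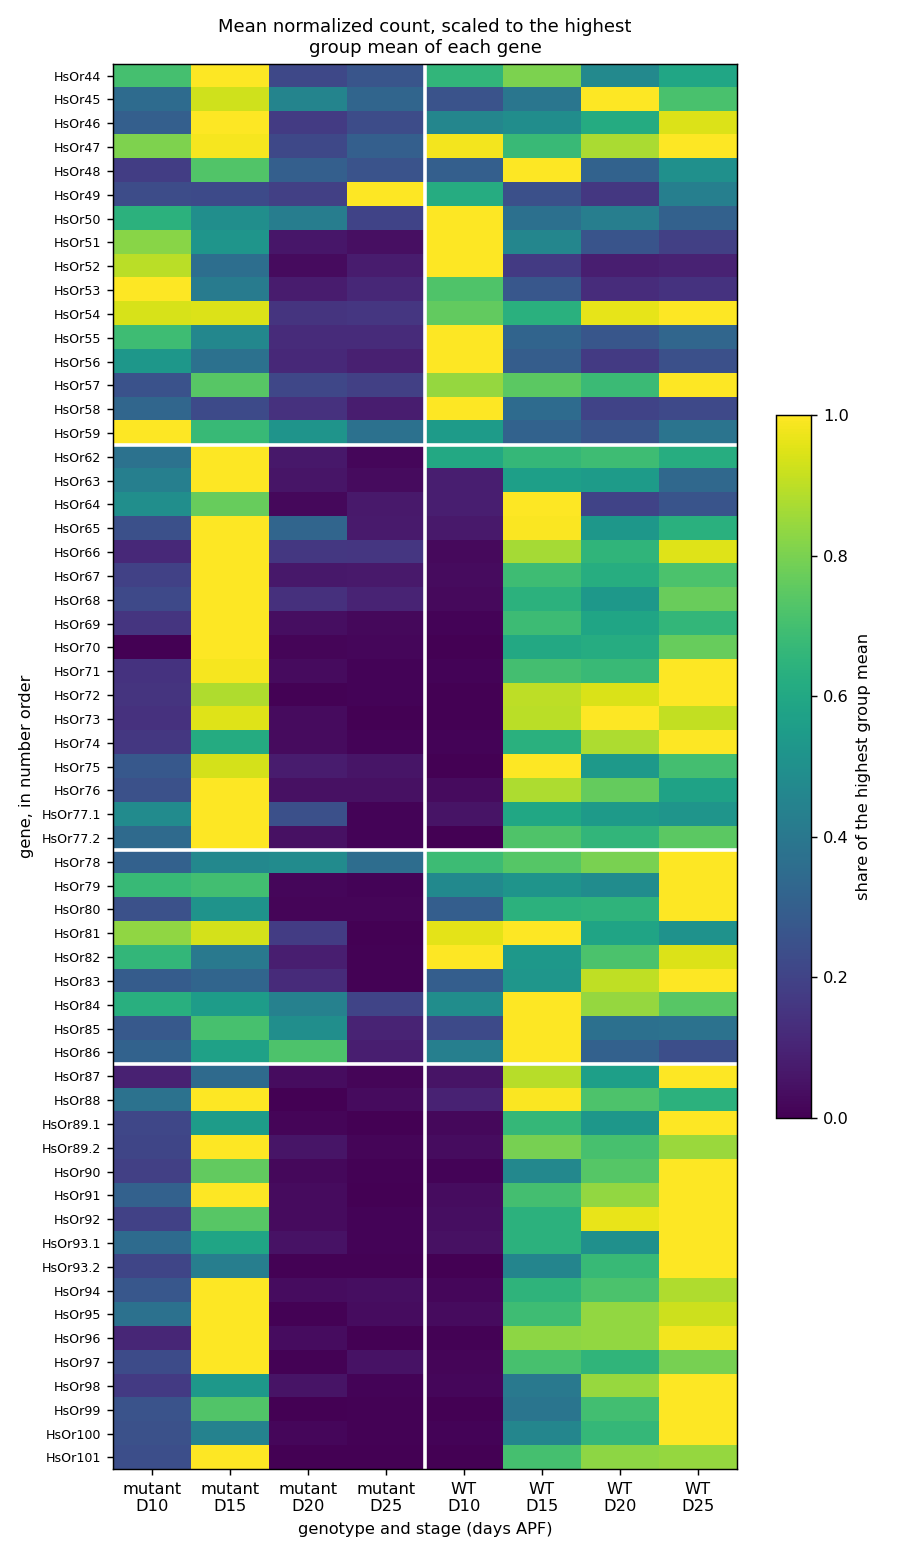
Heat map of the 59 receptor genes (rows, in number order, with white lines between the 4 blocks) in the 8 groups (columns, mutants left of WT, each from D10 to D25), colored by the group mean of normalized counts divided by the gene's highest group mean (0, dark blue, to 1, yellow). Most genes of HsOr62 to HsOr77.2 and HsOr87 to HsOr101 are dark in WT at D10, lighter in both genotypes at D15 and dark in mutants at D20 and D25, where they stay light in WT.

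**Figure D2:**
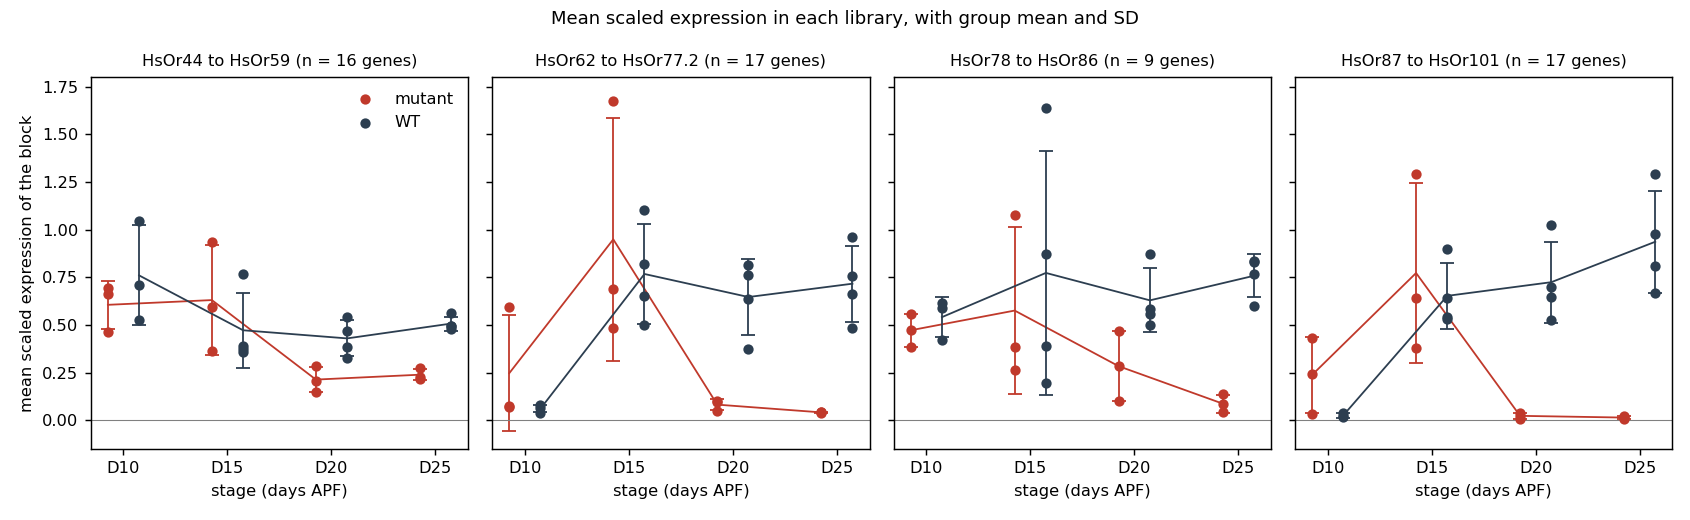
Mean scaled expression of each block (y axis, normalized count divided by the gene's highest group mean, averaged over genes, no unit) against stage in days APF (x axis), with 1 point per library, lines through the group means and bars of 1 SD, for mutants and WT. At D20 the means of HsOr87 to HsOr101 are 0.0229 in mutants and 0.724 in WT.

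An onset stage was given to each gene as the first stage whose WT mean reached 50% of its highest WT mean. In HsOr44 to HsOr59 the onset was D10 for 13 genes, D15 for 2 and D20 for 1. In HsOr62 to HsOr77.2 it was D10 for 1 gene and D15 for 16. In HsOr78 to HsOr86 it was D10 for 3 genes and D15 for 6, and in HsOr87 to HsOr101 it was D15 for 12 genes and D20 for 5. These 5 (HsOr90, HsOr93.2, HsOr98, HsOr99 and HsOr100) had already risen by D15, but to under 50% of their D25 mean. HsOr100, for one, had WT means of 0.903 at D10 and 47.5 at D15. An onset at D20 is thus no sign of a later start, and an onset at D10 may lie before the first stage sampled. The gene of the second block with a D10 onset was HsOr62, which had 25.7, 12.4 and 25.1 normalized counts in WT D10 libraries. Its WT change up to D15 did not pass the test (log2 fold change 0.08, edgeR adjusted p = 0.976), whereas the genes of its block from HsOr63 on were near 0 at D10. The scaffold holds 19 Or genes, and only the 17 of this block were examined.

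In WT, 31 of the 58 tested receptors rose between D10 and D15 and 6 fell, where 15.2% and 10.6% of all genes tested did so. The median log2 fold change was 3.55 over the 58 receptors and 0.03 over all genes, or 3.35 over the receptors with the 20 genes at the detection floor set to their bound. The 31 that rose were 14 of the 16 tested in HsOr62 to HsOr77.2 and all 17 of HsOr87 to HsOr101. Their fitted log2 fold changes were 3.28 or more, with edgeR adjusted p between 2.76e-05 and 0.0407. The upper end of these changes depends on the prior count of the fit, because several genes had few or no reads at D10. HsOr74, of the second block, had 1.39, 0.622 and 1.52 normalized counts in WT D10 libraries, and 90.2, 84.7, 42.3 and 52.1 in WT D15 libraries. The stages did not overlap (log2 fold change 5.69, SE 0.92, edgeR adjusted p = 0.00017).

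For 5 receptors no read was counted in any WT D10 library. Against a floor of 3 counts per library, HsOr70 was at least 24.7-fold higher at D15, HsOr73 at least 23.2-fold, HsOr75 at least 19.0-fold, HsOr72 at least 17.3-fold and HsOr101 at least 13.8-fold. HsOr70 had 75.6, 45.5, 51.2 and 33.0 normalized counts in WT D15 libraries. HsOr77.2 had 1 read over the 3 WT D10 libraries and 323 over the 4 WT D15 libraries, a ratio of 246 after scaling for depth (exact 95% interval 43.8 to 9728, counting error only). These receptors thus ranged from undetected to clearly measured within 5 days.

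The 6 receptors that fell between D10 and D15 in WT were HsOr50, HsOr52, HsOr53, HsOr55, HsOr56 and HsOr58, all of the first block. They were 10.3% of the 58 tested, near the 10.6% of all genes tested that fell, so their number does not set the receptors apart. HsOr52 had 167, 106 and 216 normalized counts in WT D10 libraries, and 22.3, 1.78, 16.6 and 70.0 in WT D15 libraries (log2 fold change −2.56, SE 0.67, edgeR adjusted p = 0.00726). HsOr58 had 196, 229 and 424 at D10, and 106, 133, 71.7 and 86.1 at D15 (log2 fold change −1.56, edgeR adjusted p = 0.00696). In HsOr52 and HsOr58 every D15 library lay below every D10 library. The call of HsOr52 was lost in 1 of 15 alternative fits. The edgeR adjusted p of HsOr58 was 0.0715 without WT D10 replicate 3, and that of HsOr53 was 0.0788 without WT D10 replicate 1. HsOr50 did not pass without any 1 of 5 libraries (WT D10 replicates 1 and 3 and WT D15 replicates 2, 3 and 4; adjusted p 0.0562 to 0.189 by edgeR). HsOr55 (log2 fold change −1.69) and HsOr56 (−1.81) passed without each library in turn.

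After D15 the WT levels did not move past the threshold. None of the 58 receptors was called between D20 and D15 (11.6% of all genes were), with 3 at an unadjusted p at or below 0.05 in edgeR and 1 called by DESeq2. None was called between D25 and D20 (0.00902% of all genes), with 1 at an unadjusted p at or below 0.05 in edgeR and 0 called by DESeq2. The highest WT mean was at D25 for 16 of the 17 genes of HsOr87 to HsOr101, and at D10 for 9 of the 16 genes of HsOr44 to HsOr59.

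At D10 the mean values of HsOr62 to HsOr77.2 and HsOr87 to HsOr101 were higher in mutants than in WT, but few receptors passed the test. The gap was smaller within the one batch that held both genotypes, which had 1 mutant library. Scaled expression in the 3 mutant libraries was 0.0673, 0.0765 and 0.596 in HsOr62 to HsOr77.2, against a WT mean of 0.0604 (0.0385 to 0.0772). In HsOr87 to HsOr101 it was 0.0346, 0.244 and 0.434, against a WT mean of 0.0253 (0.0148 to 0.0377). The gap of HsOr62 to HsOr77.2 thus rested on mutant replicate 3 alone: the mutant mean was 0.247 with it and 0.0719 without it. The mutant library nearest to WT was replicate 1, the only one sequenced in the batch of the WT D10 libraries, and the other 2 are the shallow ones. Within that batch the median log2 ratio of mutant to WT (1 added to each mean) was 0.32 in the second block and 0.29 in the last, against 2.63 and 2.6 over all libraries. The part of the batch and of depth in this gap was not tested.

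HsOr77.2 and HsOr100 were the receptors called higher in mutants at D10, 2 of 58, where 0.171% of all genes were. HsOr100 had 2.89, 23.4 and 50.4 normalized counts in mutant D10 libraries, against 2.09, 0.622 and 0 in WT D10 libraries. The 2 groups did not overlap (log2 fold change 4.49, SE 0.85, edgeR adjusted p = 0.0352). HsOr77.2 had 4.34, 0 and 77.6 in mutant libraries, against 0.696, 0 and 0 in WT libraries, so that it rested on mutant replicate 3 (log2 fold change 6.16, SE 1.29, edgeR adjusted p = 0.0493). With sequencing batch as a term both had an edgeR adjusted p of 0.837. HsOr77.2 did not pass without mutant D10 replicate 3 (edgeR adjusted p = 0.975) or without any 1 of the WT libraries (0.127 to 0.328). HsOr100 did not pass without mutant replicates 2 or 3 or WT replicates 2 or 3 (0.0803 to 0.291). No member of HsOr44 to HsOr59 or HsOr78 to HsOr86 was called at D10.

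At D15 the receptors were present in both genotypes. Of the 58 tested, 0 were called between mutants and WT (0.00902% of all genes), with 1 at an unadjusted p at or below 0.05 in edgeR and 0 called by DESeq2. Their median log2 fold change was 0.24, and single values ran from −1.57 to 1.06. The median was −0.39 without mutant D15 replicate 1 and −0.45 with sequencing batch as a term. Scaled expression over all 59 genes was 0.755 ± 0.462 in mutants and 0.655 ± 0.228 in WT (SD, n = 3 and 4). HsOr74 had 96.3, 37.1 and 61.6 normalized counts in mutant D15 libraries, and these overlapped the 42.3 to 90.2 of the WT D15 libraries. HsOr101 had 60.8, 31.4 and 29.8 in mutant libraries, against 37.0, 23.2, 28.2 and 26.6 in WT libraries, and the 2 groups overlapped. For 46 of the 59 genes the highest mutant mean was at D15, among them all 17 of HsOr62 to HsOr77.2 and all 17 of HsOr87 to HsOr101. Mutant replicate 1 was the highest of the 3 libraries in every block at this stage, with scaled values of 1.67 and 1.29 in these 2 blocks. Without it the mutant mean over all 59 genes was 0.495.

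Between D10 and D15, 5 of the 58 receptors rose in mutants, where 5.71% of all genes did: HsOr57, HsOr66, HsOr67, HsOr68 and HsOr70. HsOr70 had 0.723, 0 and 0 normalized counts in mutant D10 libraries and 190, 26.1 and 39.2 in mutant D15 libraries (log2 fold change 7.10, SE 1.03, edgeR adjusted p = 0.00148). This count rested on the D10 libraries described above. It was 19 without mutant D10 replicate 3, and 1 without mutant D10 replicate 1, mutant D10 replicate 2 or mutant D15 replicate 1.

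Between D15 and D20 receptor transcripts were lost from mutant antennae. In mutants 43 of the 58 receptors fell, where 10.8% of all genes did, and their median log2 fold change was −3.46 (−3.24 with the 13 genes at the floor set to their bound). The 43 were 10 of 16 in HsOr44 to HsOr59, 14 of 16 in HsOr62 to HsOr77.2, 3 of 9 in HsOr78 to HsOr86 and 16 of 17 in HsOr87 to HsOr101. Scaled expression at D15 and D20 was 0.772 ± 0.470 and 0.0229 ± 0.0142 in mutants for HsOr87 to HsOr101, and 0.949 ± 0.636 and 0.0817 ± 0.0298 for HsOr62 to HsOr77.2 (SD, n = 3 each). Without mutant D15 replicate 1 the D15 means were 0.512 and 0.587. In WT no receptor fell over the same 5 days. Tested directly, the change in mutants was below that in WT for 20 receptors and above it for 0, where 2.43% of all genes were below and 0.153% above. These were 1 gene of HsOr44 to HsOr59, 5 of HsOr62 to HsOr77.2, 2 of HsOr78 to HsOr86 and 12 of HsOr87 to HsOr101.

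**Figure D3:**
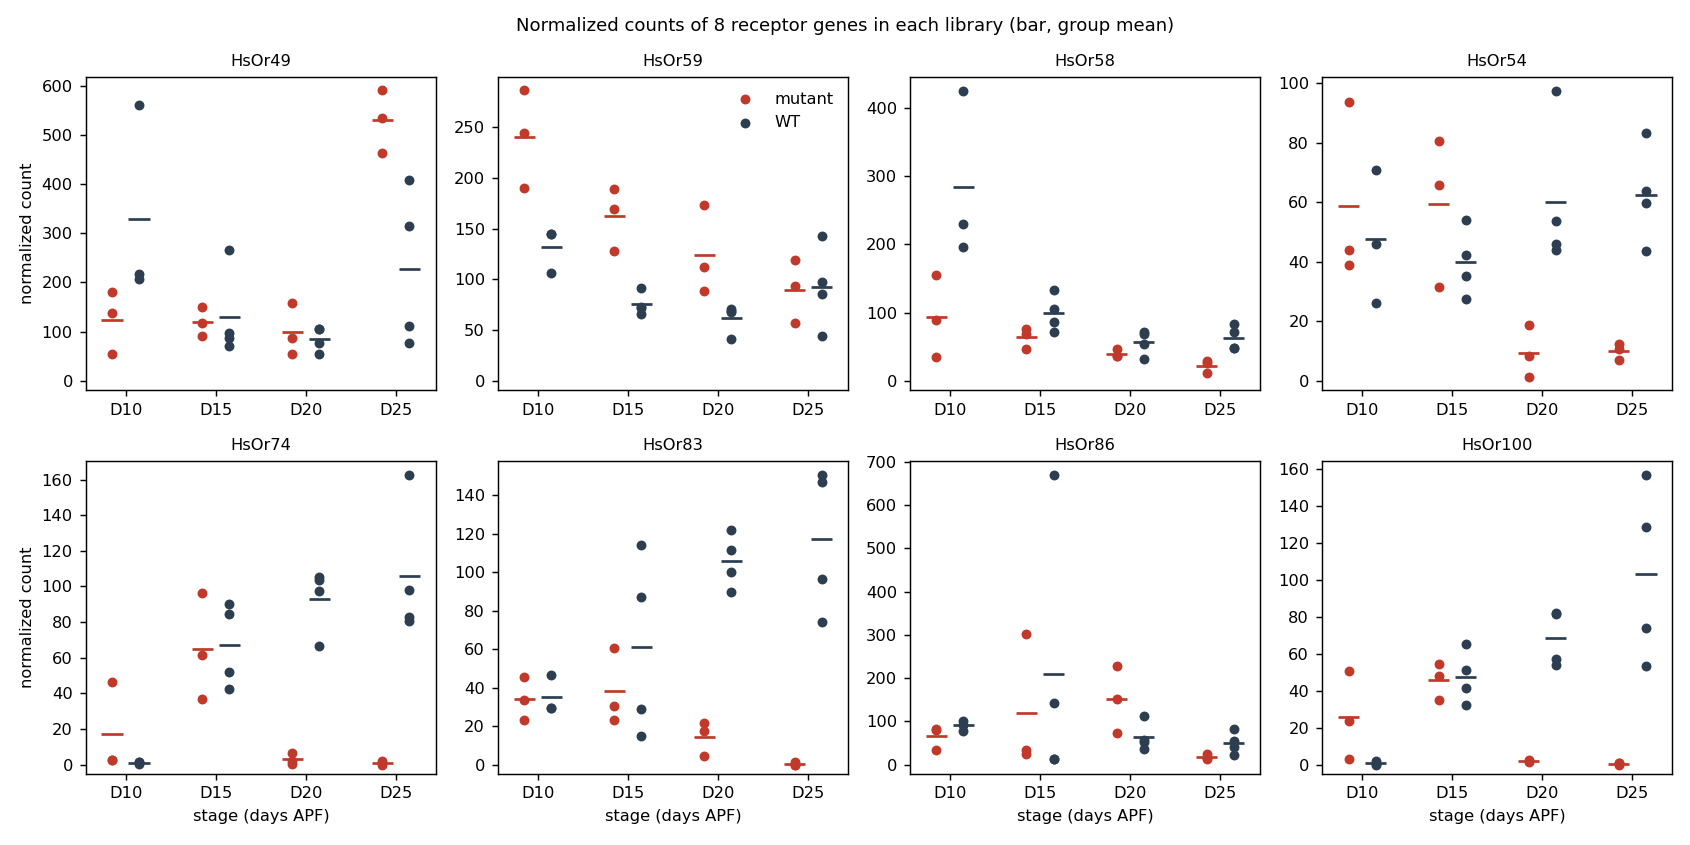
Normalized counts (y axis, each panel with its own scale) of single receptors in every library against stage (x axis, days APF), with mutant points left of WT points and short lines at the group means. HsOr100 and HsOr74 are low in all mutant libraries at D20 and D25, while HsOr49 is between 464 and 591 in mutants at D25.

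At D20, 33 of the 58 receptors were lower in mutants than in WT and 0 were higher, where 3.99% of all genes were lower and 0.749% higher. The lower ones were 3 of 16 in HsOr44 to HsOr59, 10 of 16 in HsOr62 to HsOr77.2, 4 of 9 in HsOr78 to HsOr86 and 16 of 17 in HsOr87 to HsOr101. The highest mutant value was under the lowest WT value for 40 of the 58, against 8.29% of all genes tested. The median log2 fold change was −3.26 over the 58 (−2.97 with 13 at their bound), −3.61 over the 301 other Or genes tested, of which 197 were lower, and −0.01 over all genes.

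In the last block 16 of 17 receptors were lower at D20. HsOr100 had 2.29, 1.57 and 1.8 normalized counts in mutant D20 libraries, against 82.1, 56.9, 81.2 and 53.7 in WT D20 libraries (log2 fold change −5.15, SE 0.78, edgeR adjusted p = 0.00024). HsOr88 had no read in any mutant D20 library, against 19.8, 14.5, 29.5 and 26.0 normalized counts in WT libraries, and was at least 8.88-fold lower in mutants (edgeR adjusted p = 0.000978). HsOr101 was also unread in mutants, against 18.4, 19.4, 56.6 and 40.7 in WT, and was at least 13.3-fold lower (edgeR adjusted p = 0.000294). The groups stood well apart in all 3 genes. HsOr88, HsOr99 and HsOr101 were among the 20 receptors whose change from D15 to D20 was lower in mutants than in WT. HsOr99 had 0, 0 and 0.599 in mutant D20 libraries, against 41.1, 36.3, 81.2 and 65.5 in WT D20 libraries (0.356% of the WT mean, exact 95% interval 0.0113% to 2.52%, counting error only; edgeR adjusted p = 0.00498). Its D15 to D20 difference did not pass without mutant D20 replicate 2 or 3 (edgeR adjusted p = 0.0552 and 0.0515). In HsOr89.2 the mutant values at D20 were 3.44, 0.787 and 4.19, against 26.9, 47.2, 18.5 and 49.6 in WT (log2 fold change −3.65, SE 0.80, edgeR adjusted p = 0.0067, and 0.06 without mutant D20 replicate 2).

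The second block followed closely but kept more of some genes. HsOr74 had 2.29, 6.30 and 0.599 normalized counts in mutant D20 libraries, against 103, 66.6, 97.2 and 105 in WT D20 libraries (log2 fold change −4.93, SE 0.86, edgeR adjusted p = 0.000865). HsOr67 had 2.29, 13.4 and 10.8 in mutants, against 86.4, 47.2, 93.5 and 113 in WT (log2 fold change −3.26, SE 0.74, edgeR adjusted p = 0.00918). HsOr68, its neighbor by number, had 19.5, 27.5 and 7.18 in mutants, against 69.4, 53.3, 73.8 and 81.5 in WT. The groups of HsOr68 did not overlap, but the difference did not pass (log2 fold change −1.97, SE 0.59, edgeR adjusted p = 0.0602). HsOr62, the receptor already present at D10, had 1.15, 3.15 and 2.39 in mutants, against 28.3, 12.1, 24.6 and 31.3 in WT (log2 fold change −3.37, SE 0.62, edgeR adjusted p = 0.00136).

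In HsOr78 to HsOr86 the 4 lower genes were HsOr79, HsOr80, HsOr82 and HsOr83. HsOr82 had 3.44, 7.08 and 10.2 normalized counts in mutant D20 libraries, against 62.3, 58.1, 57.8 and 56.7 in WT libraries (log2 fold change −3.07, SE 0.64, edgeR adjusted p = 0.00382). HsOr83 had 4.58, 17.3 and 21.6 in mutants, against 112, 89.6, 122 and 100 in WT (log2 fold change −2.88, SE 0.65, edgeR adjusted p = 0.00833). At the other end of this block, HsOr86 had 72.2, 229 and 153 in mutants, against 36.8, 58.1, 51.7 and 113 in WT. The HsOr86 groups overlapped and the difference did not pass (log2 fold change 1.17, SE 0.94, edgeR adjusted p = 0.664).

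In the first block HsOr47, HsOr54 and HsOr57 were lower in mutants at D20. HsOr54 had 1.15, 18.9 and 8.38 normalized counts in mutant D20 libraries, against 43.9, 46.0, 97.2 and 53.7 in WT libraries (log2 fold change −2.66, SE 0.58, edgeR adjusted p = 0.00652). HsOr57 had 13.7, 16.5 and 12.6 in mutants, against 25.5, 46.0, 55.4 and 55.5 in WT (log2 fold change −1.70, edgeR adjusted p = 0.0144). Both had groups that did not overlap. Without mutant D20 replicate 3 the edgeR adjusted p was 0.0513 for HsOr54 and 0.094 for HsOr57. HsOr59 had 173, 112 and 88.6 in mutants, against 70.8, 67.8, 68.9 and 41.3 in WT. Every mutant library of HsOr59 was above every WT library at D10, D15 and D20, a pattern held by 8.05%, 4.33% and 6.43% of all genes at these stages taken singly. None of its 3 differences passed (log2 fold changes 0.86, 1.06 and 0.98, edgeR adjusted p = 0.727, 0.41 and 0.113).

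**Figure D4:**
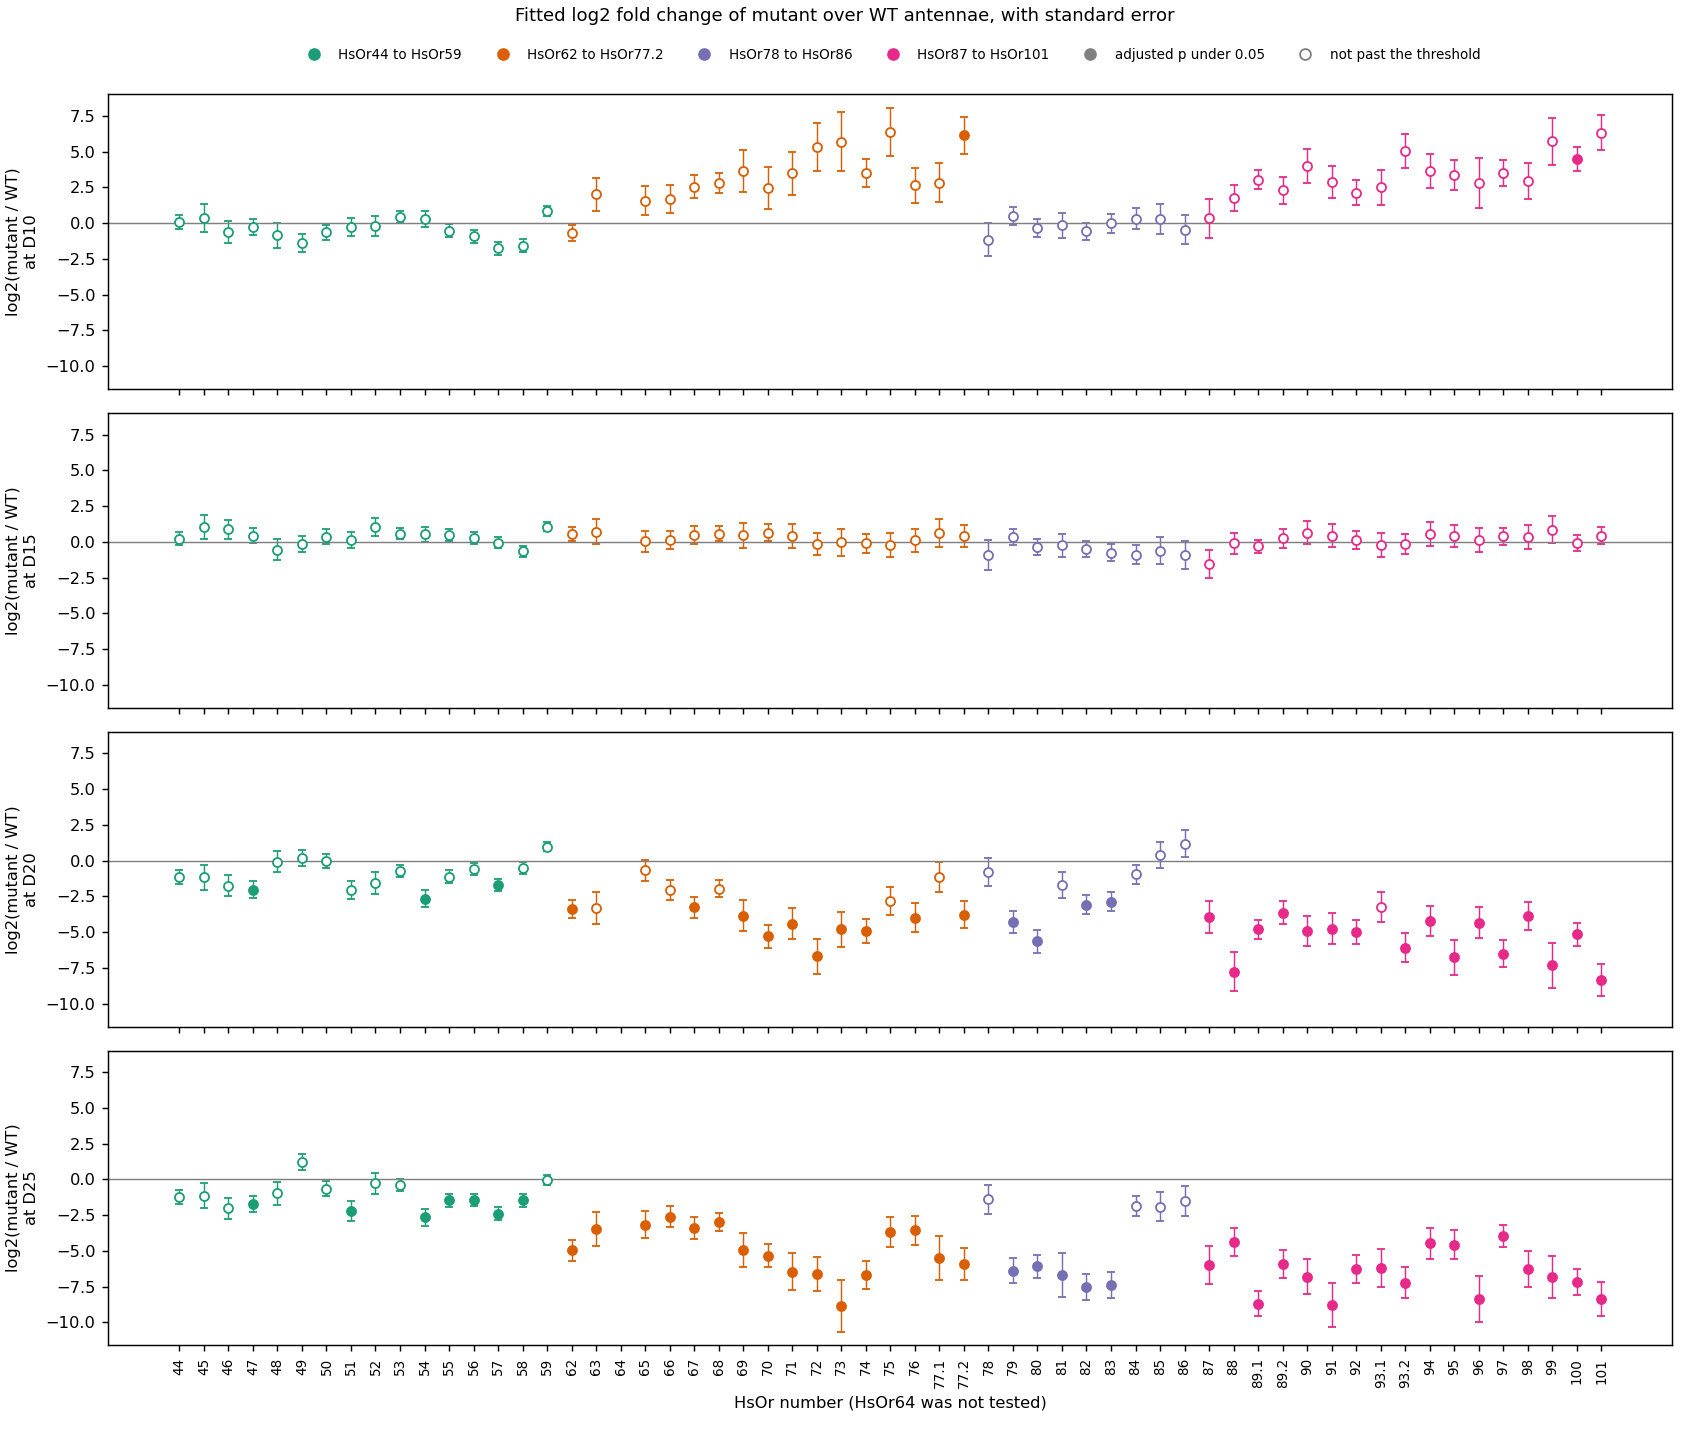
Log2 fold change of mutants over WT (y axis, edgeR) for each tested receptor in number order (x axis, colored by block) at D10, D15, D20 and D25 (panels from top to bottom), with bars of 1 SE and filled points for genes past the adjusted p threshold of 0.05. At D25 HsOr44 to HsOr59 lie nearest to 0, with a median of −1.33.

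At D25, 45 of the 58 tested receptors were lower in mutants and 0 were higher, where 11.3% of all genes were lower and 5.18% higher, and the highest mutant value was under the lowest WT value for 49, against 12% of all genes. The lower ones were 7 of 16 in HsOr44 to HsOr59, 16 of 16 in HsOr62 to HsOr77.2, 5 of 9 in HsOr78 to HsOr86 and 17 of 17 in HsOr87 to HsOr101. All 33 receptors lower at D20 were among the 45, and so were all 31 that rose between D10 and D15 in WT. Whether the difference between the genotypes at D25 exceeded that at D20 was not tested. The median log2 fold change was −4.44 over the 58 (−3.44 with 30 at their bound), −5.20 over the 301 other Or genes tested (−3.83 with 168 at their bound), of which 257 were lower, and −0.01 over all genes. By block the medians were −1.33, −4.94, −6.08 and −6.27 in scaffold order. With the 0, 11, 5 and 14 genes at the floor set to their bound they were −1.33, −3.61, −1.92 and −4.32. Within the batch that held all 3 mutant libraries and 1 WT library, 56 of the 59 genes were lower in mutants, with a median log2 ratio of −3.86 against −3.46 over all libraries (1 added to each mean). At D20 the same ratio was −3.77 and −2.83 in the 2 batches that held both genotypes (56 and 53 genes lower) and −2.79 over all libraries.

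How much of each transcript was left was described as the mutant mean in percent of the WT mean. The median over the 59 genes was 10.4% at D20 and 4.53% at D25. At D25 it was 40.7% in HsOr44 to HsOr59 (range 15.9% to 232%), 3.23% in HsOr62 to HsOr77.2 (0% to 25.9%), 1.31% in HsOr78 to HsOr86 (0% to 35.9%) and 0.991% in HsOr87 to HsOr101 (0% to 6.19%). At D20 the medians were 46.2%, 9.26%, 30.2% and 3.01% in the same order. For 28 genes at D20 and 35 at D25 less than 10% was left. At D25 no mutant library held more than 3 reads of 31 genes, 12 of them in HsOr62 to HsOr77.2, 5 in HsOr78 to HsOr86, 14 in HsOr87 to HsOr101 and none in HsOr44 to HsOr59. The D25 medians other than that of HsOr44 to HsOr59 fall on such genes, so they rest on few reads and do not rank the blocks. In HsOr78 to HsOr86 the genes were split: the 5 just named were at this floor, while HsOr78, HsOr84, HsOr85 and HsOr86 kept 26.6% to 35.9%.

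**Figure D5:**
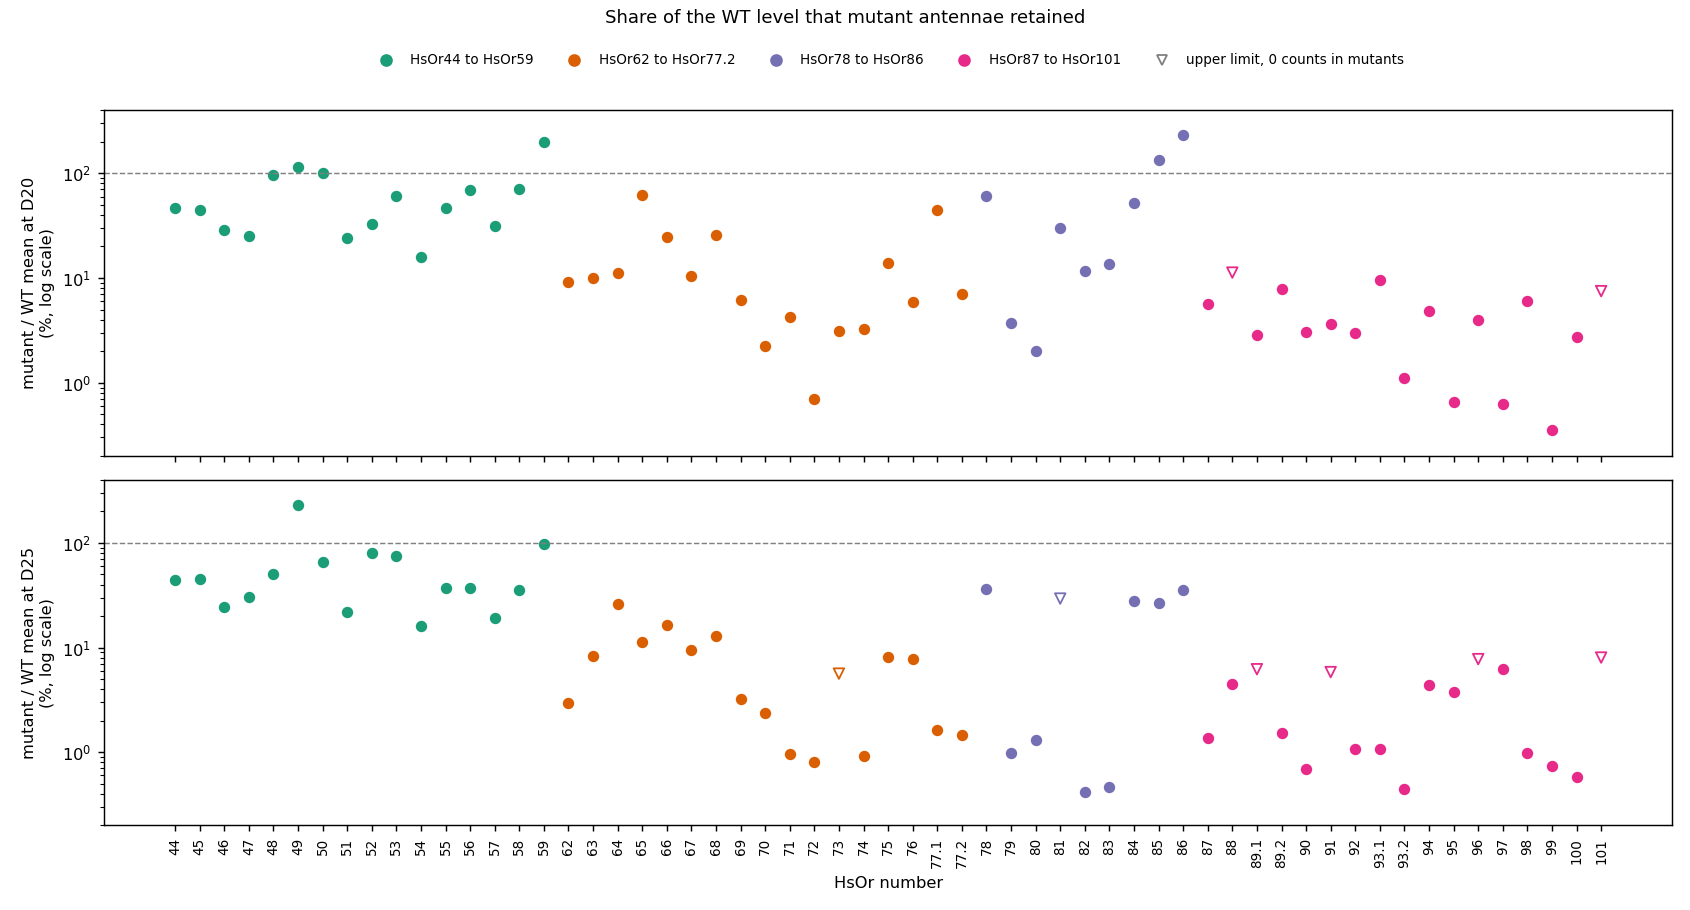
Share of the WT mean left in mutants (y axis, percent, log scale) for each of the 59 receptors in number order (x axis, colored by block) at D20 (top) and D25 (bottom). Open triangles are upper limits for genes with 0 counts in mutants, and the dashed line is 100%. The median of HsOr78 to HsOr86 is 30.2% at D20 and 1.31% at D25.

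In 6 receptors no read was counted in any mutant D25 library: HsOr73, HsOr81, HsOr89.1, HsOr91, HsOr96 and HsOr101. HsOr89.1 had 33.7, 37.2, 73.6 and 33.0 normalized counts in WT D25 libraries and was at least 16.1-fold lower in mutants (edgeR adjusted p = 7.7e-06). HsOr91, against 23.8, 44.9, 87.3 and 33.0 in WT, was at least 17.1-fold lower in mutants (edgeR adjusted p = 0.000828). HsOr73, against 21.8, 38.5, 55.2 and 80.0 in WT, was at least 17.7-fold lower in mutants (edgeR adjusted p = 0.00343). All 3 were clearly measured in each WT library. In mutants HsOr73 had 112, 8.60 and 33.1 at D15.

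Several receptors were left with 1 to 3 reads over the mutant D25 libraries. HsOr100 had 0.959, 0 and 0.816 normalized counts in mutants, against 53.4, 128, 156 and 74.1 in WT, so that 0.574% was left (exact 95% interval 0.0825% to 2.49%, counting error only; edgeR adjusted p = 2.43e-05). HsOr99 had 0.959, 0 and 0.816 in mutants, against 29.7, 96.2, 115 and 81.1 in WT (0.735% left, interval 0.0927% to 2.81%). HsOr74 had 1.92, 0.980 and 0 in mutants, against 162, 80.8, 82.7 and 97.9 in WT (0.912% left, interval 0.182% to 2.62%; edgeR adjusted p = 0.000102). No mutant library of these genes came near a WT library. HsOr62 had 1.92, 0 and 0 in mutants, against 19.8, 16.7, 18.4 and 32.4 in WT (2.93% left, interval 0.279% to 8.72%; edgeR adjusted p = 0.000121). HsOr88, which was unread in mutants at D20, had 1.92, 0 and 0.816 in mutants at D25, against 7.92, 34.6, 9.19 and 28.7 in WT (4.53% left, interval 0.719% to 10.7%; edgeR adjusted p = 0.0062). HsOr97 kept the greatest share of its block, with 0.959, 2.94 and 3.26 in mutants, against 41.6, 46.2, 27.6 and 38.9 in WT (6.19% left; log2 fold change −3.97, SE 0.76, edgeR adjusted p = 0.00126).

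HsOr82 and HsOr83, which were lower in mutants at D20, were nearly unread there at D25. HsOr82 had 0, 0.980 and 0 normalized counts in mutant D25 libraries, against 91.1, 64.1, 110 and 45.4 in WT (0.42% left, interval 0.0126% to 2.82%; edgeR adjusted p = 2.05e-05). HsOr83 had 0, 0 and 1.63 in mutants, against 150, 74.4, 147 and 96.8 in WT (0.464% left, interval 0.0713% to 2.15%; edgeR adjusted p = 2.27e-05). They were the 2 receptors of the 58 that fell between D20 and D25 in mutants, where 1.62% of all genes fell (edgeR adjusted p = 0.019 for HsOr82 and 0.0108 for HsOr83). Neither passed when mutant D25 replicate 1 was left out (0.1 and 0.0615). HsOr82 also failed without mutant D25 replicate 3, mutant D20 replicate 2 or mutant D20 replicate 3 (0.0531 to 0.101), and HsOr83 without mutant D25 replicate 2 (0.0583).

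Among the genes of HsOr62 to HsOr77.2 with a WT D25 mean of at least 10, HsOr66 and HsOr68 kept the greatest shares. HsOr68 had 11.5, 12.7 and 14.7 normalized counts in mutants, against 95, 109, 69.0 and 130 in WT (log2 fold change −2.96, SE 0.62, edgeR adjusted p = 0.00297). HsOr66 had 7.67, 8.82 and 13.1 in mutants, against 49.5, 65.4, 27.6 and 95.7 in WT (log2 fold change −2.62, SE 0.72, edgeR adjusted p = 0.0185). The HsOr66 groups did not overlap. Its adjusted p was 0.0912 without mutant D25 replicate 1 and 0.0772 without mutant D25 replicate 2 in the edgeR fit. HsOr66 to HsOr68 are consecutive by number, and all 3 were among the 5 receptors that rose in mutants between D10 and D15. Those calls of HsOr66, HsOr67 and HsOr68 were lost in 4, 7 and 5 of 14 alternative fits. All 16 tested genes of the block had a positive log2 fold change there, so the 3 do not stand out by direction.

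HsOr44 to HsOr59 had the highest median share left at D25. The 7 genes lower at D25 were HsOr47, HsOr51, HsOr54, HsOr55, HsOr56, HsOr57 and HsOr58, with log2 fold changes of −2.64 to −1.45. HsOr57 had 12.5, 6.86 and 18.8 normalized counts in mutants, against 63.3, 73.1, 69.0 and 62.7 in WT (log2 fold change −2.39, SE 0.42, edgeR adjusted p = 0.000651). HsOr54 had 12.5, 6.86 and 10.6 in mutants, against 83.1, 43.6, 59.8 and 63.8 in WT (log2 fold change −2.64, SE 0.59, edgeR adjusted p = 0.00476). Both had groups that stood apart, and both passed without each library in turn. HsOr58 had 26.8, 11.8 and 28.5 in mutants, against 71.3, 48.7, 82.7 and 48.7 in WT (log2 fold change −1.47, SE 0.44, edgeR adjusted p = 0.0283). Its call, like those of HsOr55 (−1.48, edgeR adjusted p = 0.0341) and HsOr56 (−1.45, 0.0329), was lost with batch as a term and without single libraries. These were mutant D25 replicates 1 and 2 and WT D25 replicate 1 for all 3 genes, mutant D25 replicate 3 for HsOr55 and HsOr58, WT D25 replicate 2 for HsOr55 and WT D25 replicate 3 for HsOr58 (edgeR adjusted p 0.0513 to 0.159).

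The 13 tested receptors that were not called at D25 were 9 of HsOr44 to HsOr59 (HsOr44, HsOr45, HsOr46, HsOr48, HsOr49, HsOr50, HsOr52, HsOr53 and HsOr59) and 4 of HsOr78 to HsOr86 (HsOr78, HsOr84, HsOr85 and HsOr86). Their log2 fold changes ran from −2.03 to 1.23, with edgeR adjusted p of 0.0544 to 0.972, so that a part of them may differ by amounts these libraries could not resolve. In 4 of the 13 every mutant library was below every WT library, a pattern held by 12% of all genes tested at D25, called or not. Its share among the genes not called was not measured. HsOr46 had 2.88, 5.88 and 8.16 normalized counts in mutants, against 25.7, 26.9, 18.4 and 21.6 in WT (24.3% left, log2 fold change −2.03, SE 0.72, edgeR adjusted p = 0.0544). HsOr84 had 4.79, 3.92 and 14.7 in mutants, against 41.6, 20.5, 18.4 and 31.4 in WT (27.9% left, edgeR adjusted p = 0.075). The other two were HsOr85 (26.6% left, edgeR adjusted p = 0.187) and HsOr45 (45.6% left, 0.376). HsOr59 had 93.0, 56.9 and 119 normalized counts in mutants, against 97.0, 85.9, 143 and 44.3 in WT, and the groups overlapped (log2 fold change −0.02). HsOr53 had 22.1, 16.7 and 21.2 in mutants, against 27.7, 29.5, 32.2 and 17.3 in WT (log2 fold change −0.39, SE 0.43, edgeR adjusted p = 0.535). HsOr52 had 19.2, 5.88 and 12.2 in mutants, against 9.90, 12.8, 23.0 and 16.2 in WT. HsOr50 had 21.1, 27.4 and 38.3 in mutants, against 37.6, 37.2, 32.2 and 71.4 in WT (log2 fold change −0.65, SE 0.52, edgeR adjusted p = 0.381). In these 4 genes mutant and WT libraries overlapped. HsOr78 had 1.92, 6.86 and 9.79 in mutants, against 27.7, 6.41, 23.0 and 11.9 in WT (log2 fold change −1.39, SE 1.03, edgeR adjusted p = 0.344). HsOr86 had 16.3, 12.7 and 24.5 in mutants, against 41.6, 21.8, 55.2 and 82.7 in WT (log2 fold change −1.50, SE 1.03, edgeR adjusted p = 0.308).

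HsOr49 was the one receptor with a mutant mean above the WT mean at D25. It had 591, 534 and 464 normalized counts in mutant D25 libraries, against 111, 315, 409 and 76.8 in WT D25 libraries. All mutant libraries were above all WT libraries, but the difference did not pass (log2 fold change 1.23, SE 0.55, edgeR adjusted p = 0.116). The share of all genes with this pattern was not measured at D25 and was 6.43% at D20. In mutants it had 53.8, 157 and 87.4 at D20, and it was the 1 receptor that rose between D20 and D25 there, where 1.73% of all genes rose (log2 fold change 2.44, SE 0.62, edgeR adjusted p = 0.0314). That call was lost on leaving out any 1 of the 6 libraries compared (edgeR adjusted p 0.0531 to 0.133). In WT D10 libraries it had 208, 217 and 561.

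In the study's own single-nucleus data 8 of these receptors, HsOr49 to HsOr53, HsOr58, HsOr62 and HsOr86, are placed in cells other than ORNs. The study drew up that list from other libraries, by the expression of Or genes in orco mutant nuclei. It therefore favors receptors still seen in mutant antennae, and a higher share left in mutants is in part built into it. At D25 the median share left in mutants was 50.3% for the 8 (range 2.93% to 232%) and 3.23% for the other 51 receptors (0% to 97.0%). The other 10 genes of HsOr44 to HsOr59 had a median of 36.9% (15.9% to 97.0%), so that the block as a whole kept more of its transcripts, on the list or not. Of the 8, 3 were lower in mutants at D25 (HsOr51, HsOr58 and HsOr62) and 1 at D20 (HsOr62), and 4 were among the 6 that fell in WT between D10 and D15. No test was made of this difference, because the list and the block overlap.

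Markers of cell types moved with these results in part. The summed level of 4 neuron markers ranged from 5417 to 8832 normalized counts in mutants and from 9821 to 19136 in WT at D20, and from 8563 to 9936 in mutants and from 7222 to 22159 in WT at D25. At both stages 1 of the 4 was lower in mutants, the synaptic vesicle gene nSyb (log2 fold change −1.94 at D20 and −1.52 at D25, edgeR adjusted p = 3.19e-05 and 0.000102). All 4 had negative log2 fold changes at both stages. The neuron marker onecut had −1.53 at D20 and −1.55 at D25 (edgeR unadjusted p = 0.0241 and 0.0226, adjusted p = 0.232 and 0.0891). The summed level of 6 markers of other cells (glia, muscle, epithelium, support cells, mechanosensory and ammonia-sensing neurons) ranged from 3938 to 23356 in mutants and from 8188 to 11988 in WT at D20, and from 21536 to 26568 in mutants and from 1849 to 13213 in WT at D25. These sums follow mainly 2 genes and do not stand for all 6 cell types. The epithelium gene grh averaged 9127 ± 6769 in mutants and 2687 ± 3090 in WT at D20 (SD, n = 3 and 4). The muscle gene Mhc averaged 17969 ± 1585 in mutants and 2723 ± 2605 in WT at D25. Of the 6 markers, 0 were called at D20 by edgeR, where the glial gene repo alone had an unadjusted p at or below 0.05. At D25, 1 was higher in mutants, Mhc (log2 fold change 2.71, edgeR adjusted p = 0.0253). No marker was at 0 in a library. Besides HsOrco, the co-receptor genes of the ionotropic receptors, a separate family of chemoreceptors, gave 1 lower gene at D20 (HsIr76b), and 1 lower (HsIr76b) and 1 higher (HsIr8a) at D25, of 4. The log2 fold changes of HsIr76b were −1.85, −2.08, −1.99 and −1.73 at D10, D15, D20 and D25 (edgeR adjusted p = 0.0575, 0.0636, 0.00171 and 0.00364), so the values at D10 and D15, which did not pass, were of like size. The part of shifts in cell types in the receptor results was not tested.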

How the data were processed

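Total RNA of antennae from 12 mutant and 15 WT pupal libraries was sequenced. Per the study's methods, the authors aligned reads with STAR (2.6.1d) and counted uniquely mapped reads per gene with its gene counting mode, and they clipped the longer reads of one batch. The deposited gene counts ignored strand. The deposited normalized signal was those counts divided by DESeq2 (1.34.0) size factors, which the counts reproduced to within 7.45e-08.

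Counts were tested here in R (4.3.3) with edgeR's quasi-likelihood test (4.0.16; TMM, 8 groups of genotype and stage in one model over 27 libraries, mean count of at least 10 per library, two-sided, Benjamini-Hochberg threshold 0.05). The standard error was the log2 fold change over the square root of F. The scripts were tested on simulated data. Exact 95% intervals and floors (3 counts per library) cover counting error only. Alternatives were DESeq2 (1.42.0), its size factors, library size alone, no filter, filterByExpr, sequencing batch as a term, the replicate number as a block, only the libraries compared, and leaving out each library.

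The receptors, marker lists and tests were chosen with earlier results of these data known. Named in each block were the 2 receptors with the highest WT D25 mean, the 2 called with the largest fall and the 2 with the highest share left at D25 (WT mean of at least 10). Also named were receptors called at D10 or D15 between genotypes, called higher in mutants at D20 or D25 or lower in WT between D10 and D15, those not tested, and the 3 largest and 3 smallest genotype differences in the D15 to D20 change. HsOr47, HsOr51, HsOr62, HsOr70, HsOr81, HsOr85 and other receptors beyond this rule were named after their values were seen. Receptor sequences and coordinates were not used here.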

Additional observations from a re-analysis of the deposited data

Results flagged for a closer look

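In 10 of 99 groups of 4 WT libraries tested, the highest or the lowest library lay far from the other 3. The cut used is passed by about 1 in 20 groups when values are normal and independent. These groups share libraries, and a block mean holds its own genes, so the number was not compared with chance. HsOr49 was 266 normalized counts in WT D15 replicate 1 (others 70.4 to 97.2), and HsOr77.2 was 76.5 in the same library (others 49.0 to 52.1). The mean scaled expression of HsOr44 to HsOr59 was 0.767 there too (others 0.358 to 0.390). HsOr57 was 27 in WT D15 replicate 4 (others 55.1 to 60.6), and HsOr88 was 62.4 in WT D15 replicate 2 (others 18.0 to 24.9). In WT D20 replicate 4, HsOr59 was 41.3 (others 67.8 to 70.8) and HsOr78 was 32.5 (others 5.66 to 8.61). In WT D25 replicate 3, HsOr89.1 was 73.6 (others 33.0 to 37.2) and HsOr77.2 was 18.4 (others 69.3 to 75.7). HsOr50 was 71.4 in WT D25 replicate 4 (others 32.2 to 37.6).

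For 20 receptors the log2 change between D15 and D20 in mutants minus that in WT passed the edgeR test of the difference itself (Benjamini-Hochberg adjusted p 0.00142 to 0.0373, SE 0.77 to 1.82). In HsOr87 to HsOr101 the differences were −8.77 for HsOr101, −8.19 for HsOr99, −7.65 for HsOr88, −7.21 for HsOr95, −6.90 for HsOr97, −5.94 for HsOr93.2, −5.58 for HsOr90, −5.20 for HsOr91, −5.13 for HsOr92, −5.07 for HsOr100, −4.50 for HsOr89.1 and −3.90 for HsOr89.2. In HsOr62 to HsOr77.2 they were −6.54 for HsOr72, −5.93 for HsOr70, −4.82 for HsOr74, −3.92 for HsOr62 and −3.73 for HsOr67. In HsOr78 to HsOr86 they were −5.29 for HsOr80 and −4.69 for HsOr79, and in HsOr44 to HsOr59 −3.19 for HsOr54. HsOr88 and HsOr101 had no read in mutants at D20, and HsOr72, HsOr95, HsOr97 and HsOr99 had 1, so their fitted differences depend on the prior count and are no bounds or ranks. HsOr54, HsOr67, HsOr89.2, HsOr91 and HsOr99 did not pass in 2 or more of the fits that left out 1 library (edgeR adjusted p up to 0.166).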

How the results depend on the processing

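No receptor named with a call turned its direction under any alternative run. Some medians over the receptors did. The D15 median of 0.24 (log2) was −0.45 with batch as a term and −0.39 without mutant D15 replicate 1. The WT median of −0.13 between D15 and D20 was 0.02 to 0.06 without WT D15 replicate 1 or 3 or WT D20 replicate 2. The D10 median of 1.74 was −0.32 with only the libraries compared, but over fewer receptors. There the count minimum applied to the D10 libraries alone and left out receptors near 0 at D10, such as HsOr70. The 2 D10 medians are thus not of the same genes. At D15 the median log2 ratio of HsOr78 to HsOr86 was 0.62 within batch 3 and −0.49 over all libraries. At D10 the 2 calls became 14 with DESeq2, 4 with library size alone, 1 with DESeq2 size factors, without a filter or with filterByExpr, 0 with batch as a term, and 0 to 15 on leaving out a library (15 without mutant D10 replicate 1). With only the libraries compared there were 0 calls, but HsOr77.2 and HsOr100 were under the count minimum there. They were not tested in that fit, so it cannot speak to their calls. In WT between D15 and D20 the 0 calls became 1 with DESeq2 or the batch term, 11 with library size alone and 0 to 1 on leaving out a library. In mutants between D10 and D15 the 5 calls became 17 with DESeq2, 20 with batch as a term, 2 with library size alone, 0 with only the libraries compared and 1 to 19 on leaving out a library. In mutants between D15 and D20 the 43 became 28 with only the libraries compared. Between D20 and D25 there the 3 became 14 with library size alone and 0 to 2 on leaving out a library. The 20 receptors whose change differed between genotypes became 31 with DESeq2. On leaving out a library the lower receptors numbered 23 to 33 at D20 and 32 to 45 at D25. The median share left was 4.18% at D20 within sequencing batch 1 and 2.80% at D25 with library size alone, and it ran from 9.01% to 14.2% and from 4.08% to 5.97% on leaving out a library.

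The scaled mean over the 59 genes changed when counts were summed first, so that genes with high counts weighed more: to 0.660, 0.265 and 0.304 in mutants at D10, D20 and D25, and to 0.716, 0.776 and 0.975 in WT at these stages. Mutants were then below WT at D10, where they were above it otherwise (0.376 and 0.313), and higher at D25 than at D20, where they were lower otherwise (0.0938 and 0.131). With library size alone it was 0.0374 in mutants at D25, and 0.429 and 0.461 in WT at D20 and D25, below the 0.737 of WT D15, where the WT D25 mean was above that of D15 otherwise (0.729 and 0.655). That scaling also moved the median of all genes, by −0.63 (log2) for mutants against WT at D25, −0.80 in WT and −0.87 in mutants between D15 and D20, and −0.79 in mutants between D20 and D25. It moved it by 0.12 at D10.

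With the replicate number as a block 0 receptors were called at D10, 33 at D20 and 47 at D25, and 17 differed in their D15 to D20 change. Correlations of same-numbered deviations ran from −0.409 to 0.499, and 3 of 12 were above 0.1. They cannot tell whether the numbers pair the libraries, because each deviation is from a mean of only 3 or 4 libraries. The limits are those of depth, since many receptors rest on under 100 reads in a group and values of 1 to 3 reads carry wide intervals. All mutant D25 libraries came from one batch.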

Other observations

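HsOr85 and HsOr86, neighbors by number, were highest in the same D15 libraries. In mutant D15 libraries HsOr85 had 122, 16.2 and 6.94 normalized counts and HsOr86 had 302, 24.8 and 33.5. In WT D15 libraries HsOr85 had 50.7, 18.7, 197 and 5.99 and HsOr86 had 142, 13.4, 670 and 14.2. The highest values thus fell in mutant replicate 1 and WT replicate 3 for both genes. HsOr87 spread widely among WT D20 libraries, with 4.25, 3.63, 105 and 31.9.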
